A study of Caenorhabditis elegans with 12 samples.

Results

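The effect of glucose-rich diets on *control(RNAi)* worms was measured in 6 of the 12 libraries of the series, 3 from worms on control diets and 3 from worms on glucose-rich diets, chosen by the RNAi and the diet that their labels give. The other 6 libraries, from *lpin-1(RNAi)* worms, were used to share the estimate of spread between replicates and, at the end, for a test of whether the effect differed between RNAi conditions. All 6 libraries came from the whole bodies of adult *Caenorhabditis elegans* of N2, the usual wild-type background, grown at 20 °C and fed from the egg stage with bacteria for control RNAi on plates with 10 mM IPTG. From day 1 of adulthood, FUdR (10 μM), which prevents offspring from developing, was in the plates of both groups, and the glucose group also had 2% added glucose. Neither the time spent on these plates nor whether the replicates were separate cultures is stated in the sources used here, so the *p*-values measure the spread between these libraries, which may be technical.

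In *C. elegans*, glucose taken up in the intestine enters glycolysis, is stored as glycogen and trehalose, and supplies acetyl-CoA for fatty acid synthesis. High sugar on a plate also raises the osmolarity around the animal, and worms are known to answer high osmolarity by making glycerol. Fat is broken down by lysosomal and other lipases and by beta-oxidation in mitochondria and peroxisomes, and, unlike mammals, worms can turn acetyl-CoA into sugar through the glyoxylate cycle. The insulin/IGF-1 receptor DAF-2 and its target, the transcription factor DAF-16, link food to stress resistance, and the p38 kinase PMK-1 controls many secreted immune proteins of the gut.

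Total counts ran from 17.0e6 to 31.5e6 reads in the 6 libraries. Of the 46778 genes in the files, the 14697 that passed the filter on low counts were tested, and a gene was called at a fold change above 2 with a Benjamini-Hochberg adjusted *p* under 0.05 in edgeR's quasi-likelihood test. Every adjusted *p* below comes from that test. Fold changes are log2 values of glucose-rich over control diets, with a standard error (SE) worked back from the test statistic. A list of genes is described by its counts and its median, because its members were chosen with earlier results in view. Levels are given as CPM, counts per 1e6 reads after the libraries were scaled to a common size, always in the order of replicates 1, 2 and 3. They are not corrected for gene length, so they compare samples and not genes. On the first principal component of the 6 libraries (49.3% of the variance), the control diet libraries lay between −38.6 and −18.4 and the glucose libraries between 12.7 and 42.0. Marker genes of the intestine, muscle, neurons, germline and embryo were detected, with 0 of the 30 tested markers of these 5 kinds called. Of the hypodermis and sperm markers, described further below, 1 of 5 and 1 of 49 were called, where 3.14% of all genes tested were. Strand handling in the counting is not stated, so overlaps with another gene are named where they occur.

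Glucose-rich diets upregulated 199 genes and downregulated 262, which is 1.35% and 1.78% of the genes tested and 3.14% together. The counts of called genes in the lists below stand beside these shares. The median log2 fold change was 1.71 among the upregulated genes and −1.53 among the downregulated genes, against −0.0025 over all genes tested, the value beside which the medians of the gene lists stand. The change was larger than 4-fold for 84 upregulated and 67 downregulated genes. The levels of the 3 libraries on each diet did not overlap for 458 of the 461 called genes, where 18.6% of all genes tested had groups that did not overlap. By the adjusted *p* alone, 319 genes were higher and 505 lower (5.61% together). The counts depended on single libraries: without glucose replicate 3 they were 101 and 162, without control diet replicate 1 they were 111 and 152, without control diet replicate 2 the upregulated count was 118, and without glucose replicate 1 the downregulated count was 138.

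**Figure D1:**
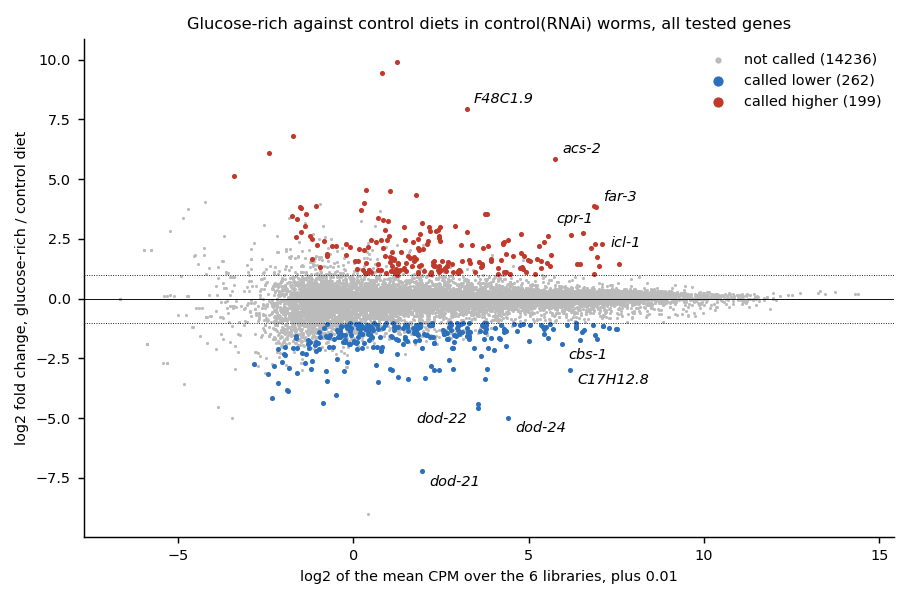
Log2 fold change of glucose-rich against control diets (vertical axis) for each of the 14697 genes tested, against the log2 of the mean level in CPM over the 6 *control(RNAi)* libraries (horizontal axis). Each point is a gene, with the 199 called higher in red, the 262 called lower in blue, and dotted lines at a fold change of 2, and most genes lie close to 0 at every level.

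The largest increases by the rule used to name genes were in *grd-17*, a pseudogene of the hedgehog-related family (WBGene00001706, chromosome V from 16990810 to 16991459 of WBcel235), and *F48C1.9* (WBGene00018601, chromosome I from 5332249 to 5332780). *grd-17* had 0, 0 and 0 counts on control diets and 69, 64 and 80 with glucose, which is at least 79.1-fold higher when the control diet group is set to a floor of 3 counts in all. *F48C1.9* had 1, 3 and 1 counts on control diets and 394, 269 and 436 with glucose (log2 fold change 7.95, SE 0.60, adjusted *p* = 4.9e-06). Both were thus near absent from every control diet library and present in every glucose library. *ugt-35*, a UDP-glycosyltransferase gene that overlaps *aqp-6* on the other strand, also went from 0 counts to 12, 10 and 13, at least 13-fold higher. *fmo-2*, a flavin-containing monooxygenase, had 0.289, 0.0364 and 0.209 CPM on control diets and 4.28, 1.47 and 6.09 with glucose (log2 fold change 4.49, SE 0.82, adjusted *p* = 0.0061). *nlp-25*, a neuropeptide-like gene, had 0.386, 0.182 and 0.418 and 6.39, 5.25 and 8.14 CPM (log2 fold change 4.33, SE 0.30, adjusted *p* = 2.1e-06). The rule that named these genes required that the diets did not overlap. The pseudogene *F09F3.8* (WBGene00014732) rose by 4.01 (SE 0.40, adjusted *p* = 5.5e-05) on the log2 scale, and *F11C7.7* by 3.89 (SE 0.65, adjusted *p* = 0.0034). For another pseudogene, WBGene00021233, the ratio of glucose to control diet was 14.9 (95% counting interval 4.73 to 75.1), and its call was lost without any 1 of control diet replicates 1 and 2 and glucose replicates 1 and 3 (adjusted *p* up to 0.11).

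Single genes of glycerol production and of the response to high osmolarity rose with glucose, while most members of these lists were not called. *gpdh-1* (WBGene00009824, chromosome I from 14075837 to 14078211), a glycerol-3-phosphate dehydrogenase that makes the precursor of glycerol and is induced by hypertonic medium, had 7.04, 9.23 and 5.52 CPM on control diets and 51.3, 39.3 and 52.4 with glucose, 6.53-fold higher (log2 fold change 2.71, SE 0.18, adjusted *p* = 1.9e-06). Every glucose library was above every control diet library, and the gene overlaps *gadr-6* on the other strand. Its paralog *gpdh-2* moved from 176, 178 and 174 to 304, 305 and 319.5 CPM, a narrow range within each diet. This was a log2 fold change of 0.81 (SE 0.07, adjusted *p* = 2.4e-05), past the adjusted *p* but under a fold change of 2.

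The last step to glycerol is the removal of the phosphate, and the *pgph* phosphatases are the worm enzymes for it, which were added to the account after their values were seen. *pgph-3* had 10.8, 19.7 and 13.7 CPM on control diets and 192, 206 and 259 with glucose (log2 fold change 3.89, SE 0.19, adjusted *p* = 1.4e-07). *pgph-2* had 37.8, 46.3 and 35.5 and 199, 179.9 and 211 CPM (log2 fold change 2.30, SE 0.11, adjusted *p* = 1.2e-07). Their levels did not overlap between the diets. *pgph-1* had 1.40, 1.27 and 1.63 and 7.41, 5.36 and 8.38 CPM, a log2 fold change of 2.29 (SE 0.58, adjusted *p* = 0.037), and its call was lost without any 1 of control diet replicates 1, 2 and 3 and glucose replicates 1 and 3 (adjusted *p* up to 0.12). The 3 genes lie within 20 kb of one another on chromosome V, and each had fractional counts in all 6 libraries, as reads divided among similar genes leave them, so how much of the increase belongs to which of them is uncertain.

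Of the 8 hypertonic response genes tested, 3 were called higher and 0 lower, with a median log2 fold change of 1.64. They were *gpdh-1*, *nlp-29* and *hmit-1.1*, a transporter of the osmolyte *myo*-inositol. *hmit-1.1* (chromosome V from 18516789 to 18523875) had 2.22, 2.54 and 2.39 CPM on control diets and 16.16, 18.1 and 15.01 with glucose (log2 fold change 2.78, SE 0.26, adjusted *p* = 3.5e-05). The related *hmit-1.2* and *hmit-1.3* did not pass, with log2 fold changes of 0.50 and −0.29. *lea-1*, a gene for survival of water loss, had 0.38 (adjusted *p* = 0.39). The other members, *cnc-4* and *cnc-11*, were not called. *cnc-11* had the largest log2 fold change of the list (3.36), but its adjusted *p* was 0.26 to 0.40 with 1 library left out. The median thus fell in a gap between the members, above *cnc-4* and below *nlp-29* (2.33).

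Among the 13 tested genes of glycerol metabolism and water channels, 2 were called higher, *gpdh-1* and *aqp-8*, and 0 lower, and the median was −0.17. *aqp-8*, an aquaporin (chromosome X from 4702167 to 4704977), had 59.7, 55.4 and 54.9 CPM on control diets and 195, 196 and 185 with glucose (log2 fold change 1.76, SE 0.12, adjusted *p* = 1.9e-06). The libraries of each diet lay close together and far from the other diet. Other aquaporins moved less and in both directions. *aqp-2* had a log2 fold change of 0.95 (SE 0.21, adjusted *p* = 0.019), *aqp-1* of −0.66 (SE 0.13, adjusted *p* = 0.0084) and *aqp-4* of −0.83 (SE 0.14, adjusted *p* = 0.0035). Overlaps were present for *aqp-1* with *ctsa-3.1* and for *aqp-4* with *marc-1*.

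The enzymes of central carbon metabolism showed few changes. Of the 19 tested glycolysis genes, 24 citric acid cycle genes, 6 pentose phosphate genes, 11 genes of trehalose and glycogen, 6 hexosamine genes and 5 sugar transporters, 0 were called in either direction. Without control diet replicate 2, 1 sugar transporter was called lower. Their medians lay between −0.10 and 0.14. Abundant members such as *aldo-2*, the aldolase (774, 882 and 664 CPM on control diets and 798, 838 and 746 with glucose), *aco-2*, the mitochondrial aconitase (814, 991 and 761 and 1031, 1045 and 918), and *pygl-1*, glycogen phosphorylase (849, 1168 and 731 and 1068, 1213 and 959.6), overlapped between the diets. Their log2 fold changes were 0.04, 0.22 and 0.24, none past an adjusted *p* of 0.05. By the adjusted *p* alone, *tald-1*, the transaldolase, was lower (−0.32, SE 0.08, adjusted *p* = 0.028), and so was *swt-3*, a SWEET-type sugar transporter (−0.85, SE 0.13, adjusted *p* = 0.0013). *swt-3* had 47.2, 38.9 and 49.04 CPM on control diets and 23.3, 23.5 and 28.2 with glucose.

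The exception among these pathways was *icl-1* (WBGene00001564, chromosome V from 724332 to 728004), the bifunctional enzyme of the glyoxylate cycle, which lets worms turn acetyl-CoA into sugar. It had 37.5, 53.5 and 45.8 CPM on control diets and 199, 230.3 and 246 with glucose, 4.93-fold higher (log2 fold change 2.30, SE 0.21, adjusted *p* = 3.1e-05). The lowest glucose library was well above the highest control diet library. It was the 1 gene called of 6 tested genes of gluconeogenesis and the glyoxylate cycle. *pck-2*, a phosphoenolpyruvate carboxykinase, was higher by the adjusted *p* alone (0.52, SE 0.13, adjusted *p* = 0.031) and overlaps *suro-1*, while *pck-1* had −0.43 (SE 0.14, adjusted *p* = 0.11) and *fbp-1*, fructose bisphosphatase, 0.01.

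Genes that activate fatty acids and carry them into mitochondrial oxidation included one of the largest increases of the comparison. *acs-2* (WBGene00009221, chromosome V from 15567394 to 15569897), an acyl-CoA synthetase that directs fatty acids to mitochondria, had 2.41, 1.64 and 1.51 CPM on control diets and 102, 101 and 115 with glucose, 57.9-fold higher (log2 fold change 5.86, SE 0.17, adjusted *p* = 1.0e-09). Its raw counts were 50, 45 and 36 against 1602, 2890 and 2360. Of the 54 tested genes of fatty acid activation and mitochondrial oxidation, 6 were called higher and 1 lower, and 13 were higher and 4 lower by the adjusted *p* alone. The list's median was 0.14.

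Of the other members called higher, all but *acs-3* act at later steps. The carnitine palmitoyltransferases, which move acyl groups into mitochondria, had 3 called genes, *cpt-4* (2.87, SE 0.41, adjusted *p* = 0.0010), *cpt-3* (1.67, SE 0.27, adjusted *p* = 0.0026) and *cpt-5* (1.57, SE 0.18, adjusted *p* = 2.2e-04). *cpt-5* had 14.9, 15.9 and 18.8 CPM on control diets and 46.8, 44.1 and 56.2 with glucose. *acdh-2*, an acyl-CoA dehydrogenase that overlaps *ins-13* on the same strand, had 2.75, 1.78 and 2.18 and 19.3, 14.1 and 43.9 CPM (log2 fold change 3.53, SE 0.54, adjusted *p* = 0.0017). Its glucose libraries were all higher but differed 3-fold among themselves, with replicate 3 on top. *acs-3*, another acyl-CoA synthetase, had a log2 fold change of 1.14 (SE 0.19, adjusted *p* = 0.0032).

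Decreases in the same list were fewer. *ech-9*, an enoyl-CoA hydratase family gene, had 36, 19 and 20 counts on control diets and 0, 2 and 4 with glucose (log2 fold change −3.46, SE 0.80, adjusted *p* = 0.024), overlaps WBGene00045179 on the same strand, and lost its call without any 1 of control diet replicate 1 and glucose replicates 1 and 2 (adjusted *p* up to 0.091). No gene of the list was called lower without control diet replicate 1 or glucose replicate 1. By the adjusted *p* alone, *hacd-1* had −0.77 (SE 0.13, adjusted *p* = 0.0043) and *ech-7* −0.60 (SE 0.11, adjusted *p* = 0.0044). *acdh-1*, an abundant acyl-CoA dehydrogenase and part of the propionate shunt, was higher by 0.50 (SE 0.13, adjusted *p* = 0.043), also under a fold change of 2, and 0 of the 9 tested propionate genes were called.

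Peroxisomal beta-oxidation, which in worms also shortens the side chains of ascaroside pheromones, had higher genes at smaller fold changes. Of 10 tested genes, 1 was called higher and 5 were higher by the adjusted *p* alone, with 0 lower by either rule and a median of 0.43. By the adjusted *p* alone 2.17% of all genes tested were higher. *acox-3*, an acyl-CoA oxidase, had 19.3, 21.3 and 30.2 CPM on control diets and 52.2, 61.9 and 59.5 with glucose (log2 fold change 1.29, SE 0.15, adjusted *p* = 1.9e-04). The others cover the successive enzymes of the cycle: *acox-1.1*, an oxidase, with 0.78 (SE 0.10, adjusted *p* = 5.6e-04), *maoc-1*, a hydratase that overlaps *E04F6.6*, with 0.57 (SE 0.13, adjusted *p* = 0.026), *dhs-28*, a dehydrogenase that overlaps *gei-15*, with 0.66 (SE 0.09, adjusted *p* = 9.6e-04), and *daf-22*, the thiolase, with 0.73 (SE 0.10, adjusted *p* = 5.6e-04). Levels of *daf-22* were 52.5, 48.8 and 60.1 CPM on control diets and 85.03, 91.001 and 91.5 with glucose. The catalase genes *ctl-2* and *ctl-1*, whose reads were partly divided between them, were also higher by the adjusted *p* alone, by 0.78 (SE 0.12, adjusted *p* = 0.0016) and 0.68 (SE 0.16, adjusted *p* = 0.025). *ctl-2* overlaps *Y54G11A.7*.

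**Figure D2:**
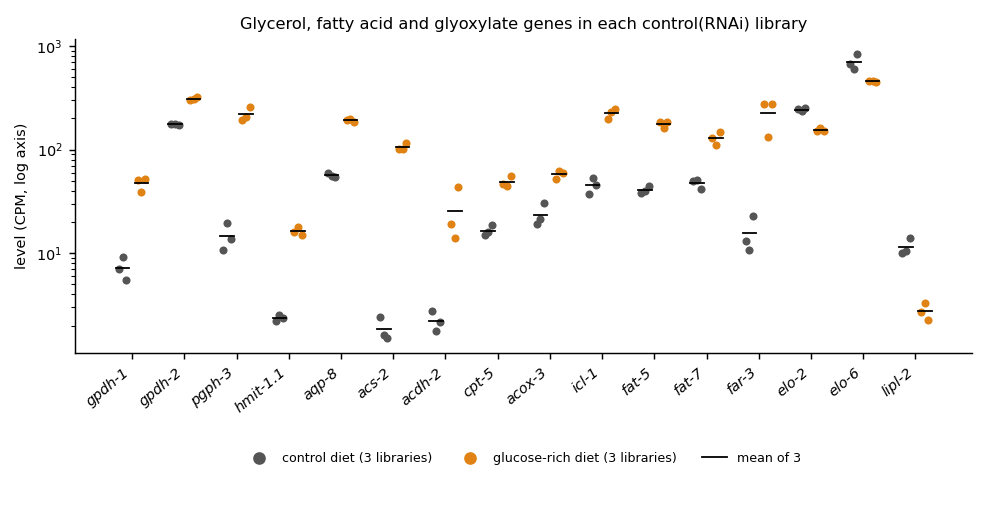
Level in CPM (vertical log axis) of 16 glycerol, fatty acid and glyoxylate genes in each *control(RNAi)* library, with the 3 control diet libraries in grey, the 3 glucose libraries in orange and the mean of each diet as a bar. The diets do not overlap for any of the 16 genes, of which *elo-2*, *elo-6* and *lipl-2* are lower with glucose. The genes shown had all passed the adjusted *p*, which favours groups that do not overlap. Of all genes tested, 18.6% had such groups.

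Among the fatty acid desaturases, 2 of the 7 tested genes rose. *fat-5* (WBGene00001397, chromosome V from 17725004 to 17726818), which makes palmitoleate from palmitate, had 38.1, 40.2 and 44.6 CPM on control diets and 184, 160.1 and 187 with glucose (log2 fold change 2.11, SE 0.13, adjusted *p* = 4.8e-07), and overlaps *twk-42* on the other strand. *fat-7* (chromosome V from 7151353 to 7153146), which makes oleate from stearate, had 50.2, 50.5 and 41.3 and 131, 111 and 149 CPM (log2 fold change 1.46, SE 0.12, adjusted *p* = 9.0e-06). For both, the lowest glucose library was more than 2-fold above the highest control diet library. The stearate desaturase *fat-6* had 449.7, 389 and 569 and 333, 293 and 415 CPM, a log2 fold change of −0.44 (SE 0.14, adjusted *p* = 0.098) with groups that overlapped. The desaturases that go on to make polyunsaturated fatty acids, *fat-2*, *fat-1*, *fat-4* and *fat-3*, had log2 fold changes of −0.16, 0.19, −0.26 and 0.08, none past the threshold.

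The fatty acid elongases, which lengthen the chain, had 0 called of 9 tested and 5 lower by the adjusted *p* alone, where 3.44% of all genes tested were lower by that rule, and a median of −0.42. *elo-2*, which acts on palmitate, had 245, 235.4 and 251 CPM on control diets and 151, 163 and 153 with glucose (log2 fold change −0.65, SE 0.07, adjusted *p* = 1.2e-04). *elo-5* and *elo-6*, which make monomethyl branched-chain fatty acids, had −0.62 (SE 0.16, adjusted *p* = 0.034) and −0.64 (SE 0.13, adjusted *p* = 0.010), and *elo-1* had −0.44 (SE 0.08, adjusted *p* = 0.0052). The list also holds *let-767*, a ketoacyl reductase of the same cycle, with −0.41 (SE 0.08, adjusted *p* = 0.0075). In each of these 5 genes all glucose libraries lay below all control diet libraries. *elo-5* overlaps *F41H10.3*.

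Fatty acid synthesis, triacylglycerol synthesis and yolk did not show called genes. Of the 8 tested genes of fatty acid synthesis and its regulators, the 15 of triacylglycerol synthesis and the 9 of S-adenosylmethionine and phosphatidylcholine, 0 were called. *pod-2*, the acetyl-CoA carboxylase, had 389.9, 622 and 465 CPM on control diets and 324, 484 and 421 with glucose, and the groups overlapped. The regulators *sbp-1*, *mdt-15* and *nhr-49* had log2 fold changes of −0.07, 0.17 and 0.04. *lpin-1*, the lipin phosphatidate phosphatase that the study knocks down in its other libraries, had 167, 163 and 144 and 182, 161 and 151 CPM (log2 fold change 0.06, SE 0.10, adjusted *p* = 0.81), also with overlap. The 6 vitellogenins, yolk proteins made in the intestine, had log2 fold changes from 0.19 (*vit-6*) to 0.30 (*vit-3*) and adjusted *p* from 0.58 to 0.71, with overlapping groups.

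Lipases moved in both directions. Of 10 tested, 1 was called higher and 2 lower, and the median was 0.18. The higher count was 0 without control diet replicate 1 or 2 or glucose replicate 1 or 3, and the lower count was 1 without any 1 library other than control diet replicate 1. *lipl-2*, a lysosomal acid lipase, had 10.03, 10.5 and 14.02 CPM on control diets and 2.68, 3.33 and 2.29 with glucose (log2 fold change −2.05, SE 0.24, adjusted *p* = 2.4e-04). *lipl-5*, another lysosomal lipase, was lower by the adjusted *p* alone, from 384, 405 and 441 to 218, 260.3 and 247 CPM (log2 fold change −0.76, SE 0.10, adjusted *p* = 4.0e-04). Both decreases were larger than the spread within a diet. *lipl-4* rose by 2.14 (SE 0.54, adjusted *p* = 0.037) and *lipl-1* fell by 2.18 on the log2 scale (adjusted *p* = 0.029), but these calls were lost without any 1 of control diet replicates 1 and 2 and glucose replicates 1 and 3 for *lipl-4* (adjusted *p* up to 0.13) and without any 1 of control diet replicates 2 and 3 and glucose replicates 1, 2 and 3 for *lipl-1* (up to 0.12). *atgl-1* and *hosl-1*, lipases of the lipid droplet, had 0.18 and 0.45 and did not pass.

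Of 16 tested genes for lipid binding proteins, 2 were called higher and 0 lower, and the median was −0.12. By the adjusted *p* alone 3 were lower, where 3.44% of all genes tested were. *far-3* (chromosome V from 12996787 to 12997522), a fatty acid and retinol binding protein whose promoter drives the glucose reporter of the study, had 13.3, 10.8 and 22.97 CPM on control diets and 275, 132 and 273 with glucose (log2 fold change 3.85, SE 0.31, adjusted *p* = 8.3e-06). All glucose libraries were above all control diet libraries, with glucose replicate 2 at 132 CPM against 273 to 275 in the others, and the gene overlaps *far-5* on the other strand. Its neighbour *far-4* had 0.579, 0.872 and 1.297 and 3.13, 2.87 and 3.46 CPM (log2 fold change 1.76, SE 0.29, adjusted *p* = 0.0030).

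Among the 10 largest decreases named, which have no divided reads, the first was *dod-24*, one of the *dod* genes, which are named as downstream of DAF-16. Of the 10 tested *dod* genes, 5 were called lower and 0 higher, with a median log2 fold change of −1.33. *dod-24* (WBGene00007875, chromosome IV from 12940106 to 12941354) had 52.8, 32.3 and 37.9 CPM on control diets and 1.79, 1.19 and 0.975 with glucose, 31.7-fold lower (log2 fold change −4.99, SE 0.25, adjusted *p* = 1.4e-07). *dod-22* (chromosome IV from 12965374 to 12967392) had 24.1, 18.2 and 25.2 and 0.639, 1.26 and 0.780 CPM (log2 fold change −4.58, SE 0.31, adjusted *p* = 1.9e-06). In both genes the highest glucose library was more than 10-fold below the lowest control diet library. These 2 and *dod-17* (25.9, 22.9 and 20.9 CPM on control diets and 5.88, 5.01 and 5.70 with glucose, log2 fold change −2.08, SE 0.19, adjusted *p* = 2.4e-05) encode secreted proteins with a CUB-like domain.

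*dod-19*, on chromosome V, had 139.96, 138 and 133 CPM on control diets and 43.2, 38.8 and 40.7 with glucose (log2 fold change −1.75, SE 0.10, adjusted *p* = 3.8e-07). *dod-21* had 363, 63 and 81 counts on control diets and 1, 1 and 1 with glucose, a ratio of 152 (95% counting interval 51.6 to 738) of control diet to glucose. Its control diet levels were 17.5, 2.29 and 3.39 CPM, highest in replicate 1, and it had fractional counts in 2 libraries. *dod-23* had 0.19 (adjusted *p* = 0.72). The means of *dod-19* were 137 ± 3.47 CPM on control diets and 40.9 ± 2.21 with glucose (± SD, n = 3).

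Of the called *dod* genes, 4 lie close together on chromosome IV. From *K08D8.4* to *K10D11.3* (12907469 to 12986134, 78.7 kb, bounds chosen after the values were seen) 17 genes were tested, and 13 of them (76.5%) were called lower and 0 higher, where 1.78% of all genes tested were lower. The log2 fold changes of the 13 ran from −7.22 to −1.04. Between 10 (without glucose replicate 1 or 3) and 13 were called lower with 1 of the 6 libraries left out in turn. *C32H11.4* had 24.6, 29.7 and 19.04 CPM on control diets and 1.41, 3.40 and 1.998 with glucose (log2 fold change −3.38, SE 0.27, adjusted *p* = 9.3e-06), and *F55G11.8* had 30.5, 22.1 and 25.4 and 6.39, 5.29 and 6.04 CPM (log2 fold change −2.14, SE 0.18, adjusted *p* = 1.2e-05). The 4 genes of the stretch that were not called were *srlf-4*, WBGene00007870, *F55G11.1* and *cld-1*, of which *cld-1* had 149, 20 and 0 counts on control diets and 0 with glucose. On the whole chromosome IV lay 68 of the 262 downregulated genes (26.0%) and 16.8% of the genes tested, and on chromosome V 84 of them (32.1%) and 75 of the 199 upregulated genes (37.7%), against 19.4% of the genes tested.

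**Figure D3:**
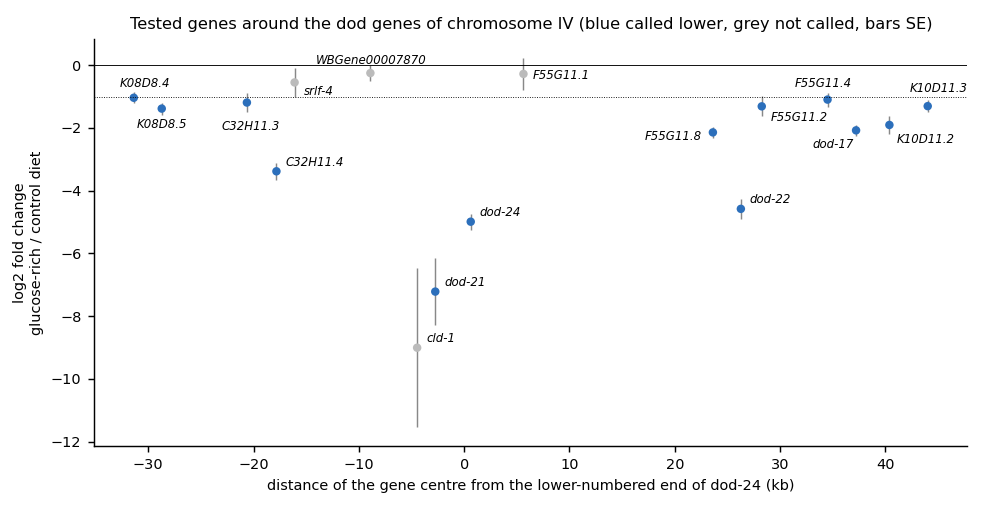
Log2 fold change of glucose-rich against control diets (vertical axis, bars SE) for the 17 tested genes from *K08D8.4* to *K10D11.3*, placed by the distance of the gene's centre from the lower-numbered end of *dod-24* in kb (horizontal axis). The 13 genes called lower (blue) lie on both sides of *dod-24*, at log2 fold changes from −7.22 to −1.04, and 4 genes between them were not called (grey).

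Outside this stretch, *C17H12.8* (chromosome IV from 6818703 to 6820575), which also encodes a CUB-like protein, had 141, 105 and 142 CPM on control diets and 18.01, 17.01 and 14.1 with glucose (log2 fold change −2.98, SE 0.16, adjusted *p* = 3.2e-07). *sysm-1* (chromosome II from 9082626 to 9083193), a small secreted peptide known as a readout of the PMK-1 pathway, had 24.8, 19.4 and 22.8 and 1.34, 1.02 and 0.829 CPM (log2 fold change −4.41, SE 0.25, adjusted *p* = 4.1e-07). Neither gene overlapped between the diets, which the naming rule required of *sysm-1*. Of the 7 tested infection response (*irg*) genes 3 were called lower and 0 higher, with a median of −0.54. *irg-5* had 8.63, 10.2 and 10.1 CPM on control diets and 0.894, 1.19 and 1.46 with glucose (log2 fold change −3.005, SE 0.28, adjusted *p* = 3.3e-05), *irg-1* fell by 1.52 on the log2 scale (adjusted *p* = 0.013), and *irg-8* was lower by the adjusted *p* alone (−0.54, SE 0.09, adjusted *p* = 0.0023). *irg-4* fell by 2.05 on the log2 scale (adjusted *p* = 0.035), and its call was lost without any 1 of control diet replicates 1 and 3 and glucose replicates 1 and 2 (adjusted *p* up to 0.13).

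C-type lectins, a large family of secreted carbohydrate-binding proteins, had 104 tested genes, of which 3 were called higher and 13 lower, with a median of −0.28. Of all genes tested, 1.35% were called higher and 1.78% lower. The 13 include both copies of *clec-209*, which share their reads. Without control diet replicate 1 the lower count was 7, and without glucose replicate 2 it was 8. *clec-67* had 25.2, 26.1 and 23.2 CPM on control diets and 3.96, 3.54 and 2.34 with glucose (log2 fold change −2.93, SE 0.17, adjusted *p* = 4.8e-07), and *clec-65* had 105, 102 and 127 and 48.7, 48.9 and 52.3 CPM (log2 fold change −1.16, SE 0.12, adjusted *p* = 1.1e-04). In both, replicates of a diet lay within a narrow range. The largest increase was in *clec-258*, from 0.723, 0.545 and 2.47 to 7.35, 8.58 and 10.97 CPM (log2 fold change 2.85, SE 0.45, adjusted *p* = 0.0023), and *clec-222* had 1.12 (SE 0.15, adjusted *p* = 7.7e-04). *clec-78* (2.52) lost the call without any 1 of control diet replicates 1 and 2 and glucose replicate 3 (adjusted *p* up to 0.090). *clec-172* (−1.93), which overlaps *txt-4*, lost it without any 1 of control diet replicates 1, 2 and 3 and glucose replicates 1, 2 and 3 (up to 0.17), and *clec-143* (−1.70) without any 1 of control diet replicate 1 and glucose replicates 1, 2 and 3 (up to 0.12).

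Lysozymes, which cut bacterial cell walls, split by gene. Of 12 tested, 2 were higher and 1 lower, and the lower count was 2 without control diet replicate 1 or 2 or glucose replicate 3. *lys-2* (chromosome V from 10280307 to 10281474) had 193, 157 and 219 CPM on control diets and 55.4, 48.1 and 71.3 with glucose (log2 fold change −1.70, SE 0.21, adjusted *p* = 3.6e-04), and its neighbour *lys-1* had 575, 559.9 and 679 and 284, 281 and 357 CPM (log2 fold change −0.98, SE 0.14, adjusted *p* = 8.7e-04), just under a fold change of 2. In contrast, *lys-4* rose from 52.1, 30.9 and 49.9 to 129, 92.6 and 144 CPM (log2 fold change 1.46, SE 0.19, adjusted *p* = 5.6e-04). *lys-6*, with fractional counts in all 6 libraries, also rose (2.47, SE 0.34, adjusted *p* = 7.8e-04). *lys-8* was lower by the adjusted *p* alone (−0.42, SE 0.10, adjusted *p* = 0.027), and *lys-7* had 0.48 (adjusted *p* = 0.37).

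Saposin-like proteins, which act on membranes, had 23 tested genes, 2 called lower, 0 higher, and a median of −0.39. Among all genes tested, 1.78% were called lower. *spp-2* had 25.8, 24.5 and 34.1 CPM on control diets and 10.03, 10.5 and 11.7 with glucose (log2 fold change −1.38, SE 0.17, adjusted *p* = 3.0e-04). *spp-8* and *spp-5* were lower by the adjusted *p* alone, by −0.69 (SE 0.10, adjusted *p* = 8.0e-04) and −0.78 (SE 0.17, adjusted *p* = 0.016), and *spp-8* went from 66.1, 66.2 and 66.9 to 37.9, 43.1 and 42.7 CPM. The other called gene, *spp-18*, had −1.06 (SE 0.20, adjusted *p* = 0.0079), and without control diet replicate 3 or glucose replicate 2 its log2 fold change was −0.87 and −0.97, under the threshold.

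Peptides with antimicrobial activity, most of them made in the epidermis, had calls in the other direction. Of 35 tested, 4 were called higher and 0 lower, with a median of 0.09, where 1.35% of all genes tested were called higher. By the adjusted *p* alone 6 were higher and 3 lower. The count called higher was 2 without control diet replicate 2 or glucose replicate 3. *nlp-29* (chromosome V from 3984425 to 3984847), induced by fungal infection, wounding and high osmolarity, had 5.35, 4.47 and 9.25 CPM on control diets and 30.5, 23.3 and 42.3 with glucose (log2 fold change 2.33, SE 0.28, adjusted *p* = 2.6e-04). Its neighbours in the same cluster were not uniform: *nlp-28* and *nlp-31* had 0.98 (SE 0.18, adjusted *p* = 0.0071) and 0.96 (SE 0.22, adjusted *p* = 0.022), and *nlp-27* went from 216, 171 and 222 to 114, 98.3 and 136 CPM (log2 fold change −0.81, SE 0.16, adjusted *p* = 0.0088), all under a fold change of 2. *cnc-7*, a caenacin, rose from 0.0965, 0.254 and 0.460 to 2.81, 1.79 and 4.19 CPM (log2 fold change 3.37, SE 0.59, adjusted *p* = 0.0044), and *cnc-4* had 0.96 (SE 0.31, adjusted *p* = 0.097). The calls of *fipr-22* and *fipr-23*, at most 19 and 7 counts in any library, were lost without any 1 of control diet replicates 1 and 2 and glucose replicates 1 and 3 for *fipr-22* and without any 1 of control diet replicates 1, 2 and 3 and glucose replicate 3 for *fipr-23* (adjusted *p* up to 0.082 and 0.11). The 21 tested *pals* genes of the intracellular pathogen response had 0 calls.

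**Figure D4:**
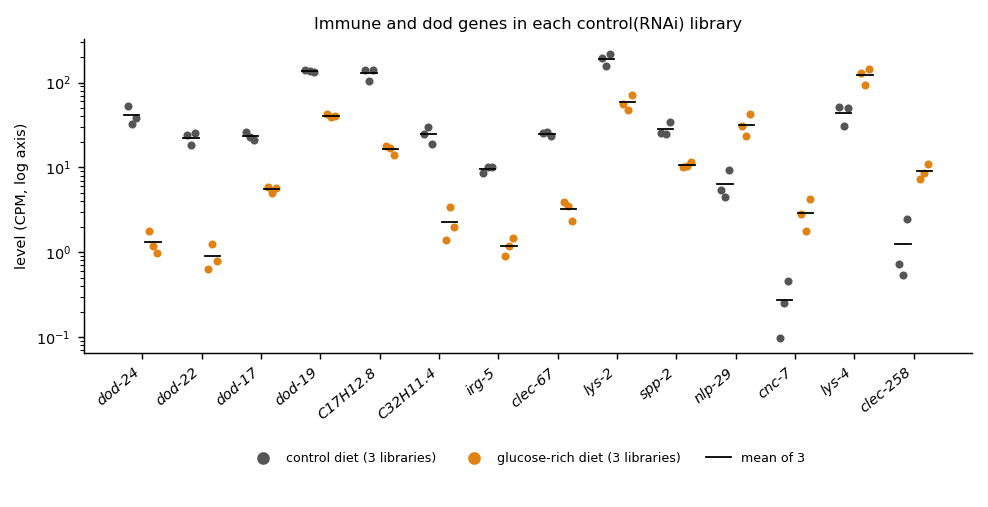
Level in CPM (vertical log axis) of 14 immune and *dod* genes in each *control(RNAi)* library, with the 3 control diet libraries in grey, the 3 glucose libraries in orange and the mean of each diet as a bar. From *dod-24* to *spp-2* all 10 genes are lower with glucose, and *nlp-29*, *cnc-7*, *lys-4* and *clec-258* are higher, with no overlap between the diets. Only called genes are shown, which favours groups that do not overlap. Of all genes tested, 18.6% had such groups.

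Detoxification genes changed by family. Of the 60 tested cytochrome P450 genes, which oxidise lipids and foreign compounds, 11 were called higher and 1 lower, with a median of 0.23. Of all genes tested, 1.35% were called higher and 1.78% lower. The higher P450 count was 5 without control diet replicate 2 or glucose replicate 3 and 7 without control diet replicate 1. *cyp-35A2* had 51.1, 67.6 and 94.9 CPM on control diets and 157, 194 and 205 with glucose (log2 fold change 1.38, SE 0.24, adjusted *p* = 0.0042), and *cyp-13B1* had 0.820, 0.654 and 1.67 and 5.11, 4.94 and 6.39 (log2 fold change 2.38, SE 0.28, adjusted *p* = 2.4e-04). The groups were apart in both, although control diet replicate 3 was the highest of its group in each. The call of *cyp-35A3* (2.46) was lost without any 1 of control diet replicates 1 and 2 and glucose replicate 3 (adjusted *p* up to 0.11), and that of *cyp-34A10* (2.09) without any 1 of control diet replicate 2 and glucose replicate 3 (up to 0.052). The 1 lower gene was *cyp-37B1*, from 1.78, 2.33 and 3.93 to 0.383, 0.315 and 0.487 CPM (log2 fold change −2.77, SE 0.35, adjusted *p* = 4.0e-04), which overlaps *F28G4.2*.

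The 38 tested glutathione S-transferases, which attach glutathione to reactive compounds, had 2 genes called higher and 6 lower. Their median was −0.24, and 1.78% of all genes tested were called lower. The higher count was 1 without control diet replicate 2 or 3 or glucose replicate 3. *gst-20* had 33.1, 34.8 and 29.04 CPM on control diets and 7.41, 9.21 and 7.99 with glucose (log2 fold change −1.97, SE 0.12, adjusted *p* = 6.6e-07), and *gst-13* had 193, 144 and 193 and 66.3, 60.03 and 59.3 (log2 fold change −1.51, SE 0.12, adjusted *p* = 8.3e-06). *gst-10* had 88.4, 98.3 and 92.1 and 39.4, 45.4 and 45.3 (log2 fold change −1.098, SE 0.11, adjusted *p* = 5.6e-05). Replicates of these 3 genes were close together and the diets far apart. *gst-38* fell by 2.08 on the log2 scale (adjusted *p* = 4.5e-04) and *gst-29* rose by 1.14 (SE 0.16, adjusted *p* = 0.0011). *gst-34* (−2.07) lost its call without any 1 of control diet replicates 1 and 2 and glucose replicates 1, 2 and 3 (adjusted *p* up to 0.17), and *gst-33* (1.59) without any 1 of control diet replicates 2 and 3 and glucose replicate 3 (up to 0.14).

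Among 61 tested UDP-glycosyltransferases, which add sugars to small molecules, 5 were higher and 3 lower, and 1 was lower without control diet replicate 3. Their median was −0.09, and 3.14% of all genes tested were called in either direction. *ugt-36* and *ugt-37* rose from 0.627, 0.364 and 0.335 to 2.11, 2.38 and 2.68 CPM (log2 fold change 2.46, SE 0.26, adjusted *p* = 8.8e-05) and from 0.482, 0.618 and 0.502 to 2.81, 2.91 and 3.07 CPM (log2 fold change 2.44, SE 0.24, adjusted *p* = 4.9e-05), and *ugt-37* overlaps *ugt-40* on the same strand. *ugt-13* fell from 26.96, 32.6 and 23.7 to 4.98, 11.76 and 8.77 CPM (log2 fold change −1.69, SE 0.29, adjusted *p* = 0.0038). *ugt-63* had −1.11 (SE 0.16, adjusted *p* = 0.0011) and *ugt-9* −1.03 (SE 0.20, adjusted *p* = 0.0088). These last 2 sat near the threshold on fold change: without control diet replicate 3 their log2 fold changes were −0.98 and −0.73, and without glucose replicate 1 that of *ugt-9* was −0.97. Of the genes for oxidative stress, heat shock and the unfolded protein response (9, 13 and 10 tested), only the copies of *hsp-16.48* were called. Without control diet replicate 1, 2 heat shock genes were called higher. *sod-3* had −0.57 (adjusted *p* = 0.13), *sod-2* −0.06 and *hsp-6*, the mitochondrial chaperone, −0.03.

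The copies of *hsp-16.48*, a small heat shock protein, were called in opposite directions. One copy (WBGene00002020) had 0, 0 and 0 counts on control diets and 51, 130 and 132 counts with glucose, and the other (WBGene00002019) had 12.4, 12.9 and 17.3 CPM on control diets and 51, 130 and 132 counts with glucose. The reads were thus assigned to 1 copy on control diets and divided equally with glucose. Summed, the pair had a log2 fold change of −0.57 (adjusted *p* = 0.12), and neither call stood for the sum.

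Genes of the cuticle showed increases that varied between replicates. Of 132 tested cuticle collagens 8 were called higher and 3 lower, yet only 24 had a log2 fold change above 0 and the median was −0.53. The higher genes include *dpy-3*, *dpy-7* and *dpy-10*, collagens of the annular furrows, and *dpy-17* and *sqt-3*, which shape the body. *dpy-10* had 5.45, 3.09 and 6.03 CPM on control diets and 18.9, 8.96 and 35.3 with glucose (log2 fold change 2.12, SE 0.47, adjusted *p* = 0.021), and *dpy-7* had 1.25, 0.473 and 2.13 and 7.602, 2.84 and 17.5 (log2 fold change 2.86, SE 0.69, adjusted *p* = 0.030). *sqt-3* had 12.298, 8.25 and 18.6 and 42.9, 24.3 and 67.6 (log2 fold change 1.78, SE 0.36, adjusted *p* = 0.012). In all 3, replicate 2 was the lowest and replicate 3 the highest on both diets, and the diets did not overlap. The count of collagens called higher was 0 without control diet replicate 1 or glucose replicate 3, 2 without control diet replicate 2 and 4 without glucose replicate 1. Among single genes, *dpy-10*, *dpy-17* and *sqt-3* each lost the call without control diet replicate 1 or glucose replicate 3, and *dpy-10* also without control diet replicate 2 (adjusted *p* up to 0.092, 0.080 and 0.060), while *dpy-3* lost it without any 1 of control diet replicates 1 and 2 and glucose replicate 3 and *dpy-7* and *col-121* without any 1 of control diet replicates 1 and 2 and glucose replicates 1 and 3 (up to 0.070, 0.14 and 0.12).

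Other genes of the apical extracellular matrix, named after their values were seen, moved with the furrow collagens. *noah-1* had 18.2, 19.6 and 33.5 CPM on control diets and 67.9, 52.6 and 81.9 with glucose (log2 fold change 1.502, SE 0.28, adjusted *p* = 0.0073), and *noah-2* had 11.7, 11.5 and 23.2 and 46.4, 34.9 and 61.8 (log2 fold change 1.62, SE 0.31, adjusted *p* = 0.0074). Both kept the call with any 1 library left out. *mlt-11*, a protease inhibitor needed for moulting that overlaps *W01F3.4* and *W01F3.5*, had 3.38, 3.56 and 8.33 and 20.1, 14.1 and 36.3 CPM (log2 fold change 2.20, SE 0.43, adjusted *p* = 0.0088), and lost the call without control diet replicate 1 (adjusted *p* = 0.052). The order of replicates 2 and 3 was again the same on both diets. Of the 5 hypodermal markers, *dpy-7* was the 1 called, and the summed level of the 5 was 149 to 173 CPM on control diets and 169.9 to 187 with glucose. In whole worms, more or fewer cells of a tissue and more or less RNA per cell cannot be told apart.

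Collagens called lower were *col-110*, from 5.21, 2.54 and 5.40 to 0.575, 0.350 and 0.439 CPM (log2 fold change −3.30, SE 0.49, adjusted *p* = 0.0013), *col-147* (−1.67, SE 0.25, adjusted *p* = 0.0013) and *col-169* (−1.61, SE 0.44, adjusted *p* = 0.0499). The latter 2 had fractional counts in all 6 libraries, *col-110* overlaps *nspg-10* and *col-147* overlaps *T06E4.5*, and the call of *col-169* was lost without any 1 of control diet replicates 1, 2 and 3 and glucose replicates 1 and 3 (adjusted *p* up to 0.15). The lower count was 5 without control diet replicate 2 and 6 without glucose replicate 2.

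Hedgehog-related genes, which in worms act mainly in the epidermis and its cuticle, had 53 tested members, 3 called higher and 5 lower, with a median of 0.02. The called pseudogene *grd-17* is not in this list, since the files give it no symbol, and was named through the RefSeq table by its position. *ptr-22*, a patched-related gene with 2 to 22 counts, rose by 2.23 (SE 0.42, adjusted *p* = 0.0076). *grd-10* fell from 23.1, 23.96 and 21.4 to 8.05, 11.76 and 9.36 CPM (log2 fold change −1.22, SE 0.15, adjusted *p* = 2.6e-04). These 2 kept the call with any 1 library left out. The calls of *ptr-25* (2.71), *wrt-10* (1.64), *wrt-4* (−1.61) and *grd-4* (−1.48) did not: *ptr-25* lost it without any 1 of control diet replicates 1 and 2 and glucose replicate 3, *wrt-10* without any 1 of control diet replicates 1 and 2 and glucose replicates 1 and 3, *wrt-4* without any 1 of control diet replicate 1 and glucose replicates 1, 2 and 3 and *grd-4* without glucose replicate 1 (adjusted *p* up to 0.094, 0.12, 0.14 and 0.059). With 1 library left out in turn, the higher count ran from 1 (without control diet replicate 1 or glucose replicate 3) to 6 (without glucose replicate 2), and the lower count was 1 without glucose replicate 1, 2 without control diet replicate 1 and 3 without glucose replicate 2 or 3.

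Digestive proteases of the gut had 18 tested genes, 1 called higher and 3 lower. *cpr-1* (chromosome V from 11975551 to 11976756), a cathepsin B-like cysteine protease, had 18.9, 20.2 and 21.9 CPM on control diets and 109.7, 124 and 148 with glucose, 6.25-fold higher (log2 fold change 2.64, SE 0.12, adjusted *p* = 1.2e-07). The aspartyl protease *asp-8* had 24.5, 25.5 and 19.8 and 6.84, 9.24 and 5.80 CPM (log2 fold change −1.66, SE 0.18, adjusted *p* = 1.2e-04). The diets were far apart in both genes. *asp-14* had −1.06 (SE 0.17, adjusted *p* = 0.0027), and without glucose replicate 3 its log2 fold change was −0.92. *asp-17* had −1.12 (SE 0.23, adjusted *p* = 0.013) and lost the call without any 1 of glucose replicates 1 and 3 (adjusted *p* up to 0.064). *nep-8*, a neprilysin-type peptidase, was among the largest decreases, from 6.56, 4.33 and 5.06 to 0.319, 0.350 and 0.877 CPM (log2 fold change −3.35, SE 0.32, adjusted *p* = 3.8e-05).

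Among signalling genes there were few calls. The 10 tested genes of insulin signalling had 0 calls: *daf-16* had a log2 fold change of −0.01. Of 25 tested insulin-like peptide genes, *ins-33* was called lower, from 5.50, 3.78 and 4.56 to 1.60, 2.07 and 2.10 CPM (log2 fold change −1.25, SE 0.22, adjusted *p* = 0.0045). The higher count was 0, and 1 without control diet replicate 3 and 2 without glucose replicate 2. Of 184 tested nuclear hormone receptors, 3 were higher and 2 lower, 2.72% together against 3.14% of all genes. *nhr-11* had 1.36 (SE 0.24, adjusted *p* = 0.0045). *nhr-74*, which overlaps *C27C7.9* and had fractional counts in 4 libraries, had 8.39, 8.03 and 9.75 and 1.09, 0.630 and 1.61 CPM (log2 fold change −3.003, SE 0.31, adjusted *p* = 8.5e-05). *nhr-155* was at least 7.80-fold higher, from 0 counts, but lost the call without any 1 of control diet replicates 1, 2 and 3 and glucose replicates 1 and 3 (adjusted *p* up to 0.13). *nhr-53* (1.08) lost it without any 1 of control diet replicates 1 and 2 and glucose replicates 2 and 3 (up to 0.16), and *nhr-193* (−1.18) without glucose replicate 2 (0.0503). With 1 library left out, the higher count was 1 without control diet replicate 1 or 2 or glucose replicate 3, and the lower count was 4 without control diet replicate 3 or glucose replicate 3 and 1 without glucose replicate 2.

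Of 50 tested transthyretin-related genes 4 were lower and 0 higher, with 1 lower without control diet replicate 1 or any 1 glucose replicate and 2 without control diet replicate 3. Their median was −0.12, and 1.78% of all genes tested were called lower. *ttr-12*, *ttr-29* and *ttr-23* had at most 35 counts in any library and lost their calls with 4 or more of the 6 libraries left out in turn. Of 110 tested *fbxa* genes, 24 had a log2 fold change above 0 and the median was −0.27. By the adjusted *p* alone 10 were lower and 0 higher, where 3.44% of all genes tested were lower, and 1 was called, *fbxa-190* (−1.02 (SE 0.25, adjusted *p* = 0.032), lost without any 1 of control diet replicates 1 and 3 and glucose replicates 1 and 2, adjusted *p* up to 0.13). The lower count was 2 without control diet replicate 2, and 1 *fbxa* gene was called higher without control diet replicate 3. The 80 tested cytosolic ribosomal protein genes and 33 respiratory chain genes had 0 calls, with medians of 0.05 and −0.07.

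Among the remaining large decreases by the naming rule, *comt-2*, a catechol O-methyltransferase that overlaps WBGene00005466, had 35, 20 and 17 counts on control diets and 0, 3 and 0 with glucose, a ratio of 21.5 (95% counting interval 7.08 to 107) of control diet to glucose. *srlf-37* had 10, 16 and 11 and 0, 2 and 0, a ratio of 16.6 (95% counting interval 4.28 to 142). *Y39G8B.9* had 31, 43 and 22 and 0, 4 and 1 (log2 fold change −4.04, SE 0.50, adjusted *p* = 3.1e-04). *Y49G5A.1* had 4.73, 1.53 and 2.55 and 0.447, 0.105 and 0.292 CPM (log2 fold change −3.48, SE 0.65, adjusted *p* = 0.0068). All 4 kept the call with any 1 library left out, although they rest on few reads with glucose.

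Germline and embryo markers gave no calls. The 9 germline and oocyte markers had log2 fold changes from 0.13 to 0.25 and 0 calls, with an overlapping summed level of 5074 to 7403 CPM on control diets and 6031 to 7337 with glucose, and the 6 tested embryo markers had 0 calls. Sperm genes lay mostly below 0: 4 of 49 tested were above 0 and the median was −1.32, while 1 was called, *spe-46* (−1.16, SE 0.26, adjusted *p* = 0.023), which lost the call without any 1 of control diet replicates 1 and 2 and glucose replicates 1, 2 and 3 (adjusted *p* up to 0.10). The summed level of the sperm list was 323 to 666 CPM on control diets and 240 to 388 with glucose, so the diets overlapped. Without glucose replicate 2, 23 sperm genes were called lower, without control diet replicate 3, 10 were, and without any 1 of the others, 0 were. A share of the list, 26 of the 49, had fractional counts, since the major sperm protein genes are nearly identical, so these are not 49 separate measurements.

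**Figure D5:**
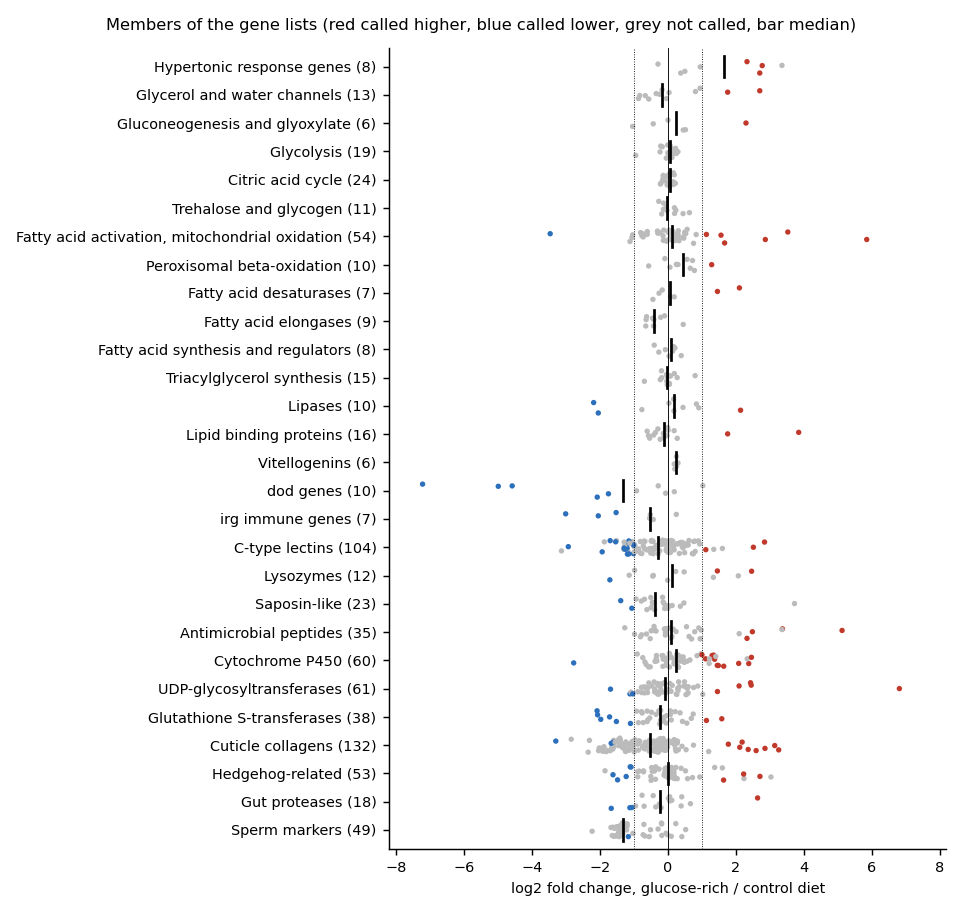
Log2 fold change of glucose-rich against control diets (horizontal axis) for the tested members of 28 gene lists (vertical axis, number tested in parentheses), with genes called higher in red, called lower in blue, not called in grey, and the median of each list as a black bar. The medians farthest from 0 are those of the *dod* genes (−1.33), the hypertonic response genes (1.64, 3 of 8 called) and the sperm markers (−1.32). Medians of glycolysis (0.06) and the citric acid cycle (0.05) lie near 0, and no vitellogenin was called (median 0.26).

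The libraries from *lpin-1(RNAi)* worms allowed a test of whether the glucose effect differed between the RNAi conditions. The difference passed an adjusted *p* of 0.05 for 236 of the genes tested (1.61%) and for 59 of the 461 called genes (12.798%). These 461 were picked for a large effect in *control(RNAi)* worms, which by itself favours a smaller effect in the other condition. *cpr-1* had a log2 fold change of 2.64 in *control(RNAi)* worms and −0.11 in *lpin-1(RNAi)* worms, a difference of −2.76 (SE 0.16, adjusted *p* = 6.2e-06). *C17H12.8* had −2.98 and −0.52, a difference of 2.46 (SE 0.21, adjusted *p* = 1.4e-04), and *dod-24* had −4.99 and −2.25, a difference of 2.74 (SE 0.36, adjusted *p* = 0.0017). For *nlp-29* the effects were 2.33 and −0.03, with a difference of −2.36 (SE 0.37, adjusted *p* = 0.0054). These 4 changes were thus larger in *control(RNAi)* worms. The difference was not past the threshold for *gpdh-1* (−0.45, adjusted *p* = 0.68), *hmit-1.1* (0.86, 0.46), *aqp-8* (0.42, 0.37), *icl-1* (0.72, 0.36) or *irg-5* (0.37, 0.94), which does not show that their effects were equal.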

How the data were processed

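Whole-body RNA of adult worms was sequenced after a TruSeq stranded library kit. Per the labels, the authors aligned reads with STAR (2.7.0e), estimated a count per gene with RSEM (1.3.1) and used DESeq2 (1.22.2), with the build WBcel235/ce11. Whether the counting used strand is not given in the sources used here. The deposited values are expected counts, unnormalized, which were rounded to whole numbers. They are fractional where RSEM divided reads among genes, in 1657 of the 46778 genes over the 6 *control(RNAi)* libraries.

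Groups were taken from the labels (3 libraries in each of 4). All 12 libraries entered 1 model of group means in edgeR (4.0.16, R 4.3.3), with filterByExpr (minimum count 10), TMM scaling and quasi-likelihood tests, with 8 residual degrees of freedom. *p*-values were adjusted by Benjamini-Hochberg over the 14697 genes tested. CPM is the count over the TMM-scaled library size. The SE is the absolute log2 fold change over the square root of the F statistic of its test. The test was checked on simulated data. Genes at 0 counts in 1 group got a bound from a floor of 3 counts over that group. Groups with 1 to 3 counts got an exact 95% interval of the ratio. Both cover counting error only.

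The gene lists and the genes they hold were chosen with earlier results of these data known. Named genes were the 10 largest changes in each direction that were called, did not overlap, had at least 10 counts in each library of the higher group and had no fractional value, up to 3 called genes per list and direction (or the most abundant member where none was called), and *lpin-1*, *far-3*, *fat-5* and *fat-7*. Other genes were named after their values were seen. Gene positions and overlaps came from the Ensembl annotation of WBcel235. Same-numbered replicates correlated at 0.061, 0.397 and 0.302 in their deviations from the group means, and different-numbered ones at −0.417 to 0.140. The main model did not take the numbers as pairs, so any effect shared by same-numbered libraries stayed in its spread. Alternatives were DESeq2 (1.42.0), other scalings, filters and thresholds, fewer libraries and a replicate block.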

Additional observations from a re-analysis of the deposited data

Results flagged for a closer look

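For 27 of the named genes, the glucose effect in *lpin-1(RNAi)* worms differed from that in *control(RNAi)* worms by the test of the difference itself (edgeR, adjusted *p* from 6.2e-06 to 0.035). The values below are that difference on the log2 scale, with the effect in *control(RNAi)* worms taken from the effect in *lpin-1(RNAi)* worms. The absolute effect was smaller in *lpin-1(RNAi)* worms in 25 of the 27, and in 9 it had the opposite sign, none of them past an adjusted *p* of 0.05 in *lpin-1(RNAi)* worms. The genes were chosen for a large change in *control(RNAi)* worms, which favours such a direction, and no explanation was tested.

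Increases that were smaller with *lpin-1(RNAi)* had differences of *acs-2* −1.28, *fat-5* −1.23, *fat-7* −0.96, *pgph-2* −0.96, *ugt-36* −2.51, *adh-1* −1.92, *cpr-1* −2.76 and *nlp-29* −2.36. For example, *fat-7*, which makes oleate, went from 1.46 in *control(RNAi)* to 0.50 in *lpin-1(RNAi)* worms (difference −0.96, adjusted *p* = 0.0086). The effect on *acs-2* went from 5.86 in *control(RNAi)* to 4.58 in *lpin-1(RNAi)* worms (difference −1.28, adjusted *p* = 0.013), so it was large in both. Counts of *pgph-2* were fractional in every *control(RNAi)* library.

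Decreases that were smaller had differences of *dod-24* 2.74, *dod-22* 1.88, *dod-17* 1.58, *C17H12.8* 2.46, *F55G11.8* 1.53, *sysm-1* 1.97, *clec-67* 2.05, *nep-8* 2.43, *cbs-1* 1.95, *gst-20* 1.47, *gst-13* 1.28, *ugt-63* 1.44, *asp-14* 1.26, *ins-33* 1.98, *col-147* 1.86 and *nhr-74* 5.22. In *sysm-1* the effect went from −4.41 in *control(RNAi)* to −2.44 in *lpin-1(RNAi)* worms (difference 1.97, adjusted *p* = 0.0089). The gut immune and *dod* genes are 7 of these 16. *nhr-74* and *col-147* had fractional counts, in 4 and 6 of the *control(RNAi)* libraries.

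In the other direction, *cyp-13B1* went from 2.38 in *control(RNAi)* to 4.93 in *lpin-1(RNAi)* worms (difference 2.54, adjusted *p* = 0.0087) and *cpt-5*, a carnitine palmitoyltransferase, from 1.57 in *control(RNAi)* to 3.06 in *lpin-1(RNAi)* worms (difference 1.495, adjusted *p* = 0.012). The copy of *hsp-16.48* (WBGene00002020) had a difference of −9.41, and its reads are divided with the other copy. In groups of 3 libraries a single far sample was not tested for.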

How the results depend on the processing

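Among the 120 called genes with values above, 80 kept the call with each of the 6 libraries left out in turn, and 40 lost it at least once. All 120 kept it with RLE scaling and with the replicate block, 115 kept it with DESeq2, and 1 lost it with library totals alone. Of the 114 that could be tested in the 6 *control(RNAi)* libraries alone, 100 kept the call.

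With 1 library left out, genes called higher ranged from 101 (without glucose replicate 3) to 253 (without glucose replicate 2) and lower from 138 (without glucose replicate 1) to 317 (without glucose replicate 2). Called list members ranged from 83 to 112, and genes whose glucose effect differed between RNAi conditions from 153 to 246.

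Counts of lower genes were 165 with at least 10 counts in each of the 6 libraries and 171 in a fit of these libraries alone, which tests fewer genes or samples. By the adjusted *p* alone, 319 genes were higher, 505 lower and 208 list members passed. At a fold change above 1.5, 429 genes were lower and 180 list members were called. DESeq2 gave 461 genes with a differing effect. For the 1 copy of *hsp-16.48* called higher, the summed rows gave −0.57. Other causes were not tested.

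By the correlations given, same-numbered libraries deviated together most for replicates 2 and 3, and a shared replicate effect was not tested. The replicate block raised the lower count to 502 (427 within the 6 libraries) and the count of differing effects to 488. It shared 199 of the 199 higher and 260 of the 262 lower calls. The share of higher genes among calls was 43.2%, and 34.3% with the block. Library totals alone gave 37.2% and moved the median of all genes to −0.05. Depth limits genes with few reads: with the glucose library of 17.0e6 reads, a count of 0 allows up to 3 reads.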

Other observations

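Enzymes of sulfur amino acids moved in opposite directions with glucose. All genes in these 2 paragraphs were chosen after their values were seen. *cbs-1*, a cystathionine beta-synthase, had 99.01, 99.8 and 91.3 CPM on control diets and 25.7, 26.5 and 25.1 with glucose (edgeR, log2 fold change −1.91, SE 0.11, adjusted *p* = 4.8e-07). *cth-1*, a cystathionine gamma-lyase that acts on its product, had 97.9, 76.99 and 129 and 251, 264 and 323 CPM (log2 fold change 1.46, SE 0.19, adjusted *p* = 5.6e-04). Neither overlapped between the diets.

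*asns-2*, an asparagine synthetase, had 9.79, 15.8 and 14.2 CPM on control diets and 64.3, 92.4 and 85.8 with glucose (edgeR, log2 fold change 2.61, SE 0.24, adjusted *p* = 2.7e-05). *argk-1*, an arginine kinase, which stores phosphate for ATP, had 20.98, 17.6 and 34.98 and 129.8, 153 and 208 CPM (log2 fold change 2.74, SE 0.32, adjusted *p* = 2.0e-04). *adh-1*, an alcohol dehydrogenase that overlaps *sodh-2*, had 8.199, 5.31 and 5.73 and 34.5, 28.5 and 34.8 CPM (log2 fold change 2.35, SE 0.17, adjusted *p* = 3.9e-06). All 3 were higher in every glucose library than in any control diet library.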
